A study of Mus musculus with 11 samples.

Results

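The genes described here are the Wnt ligands, the proteins that export and receive them, and the inhibitors that restrain the pathway. Members were taken by symbol from the count table: numbered Wnt, Fzd, Lgr, Rspo, Sfrp and Dkk genes, together with Lrp5, Lrp6, Axin2, Rnf43, Znrf3, Porcn, Wls, Wif1, Nkd1, Notum, Tcf7 and Lef1. The table held 51 of them among 18305 genes. They comprised 15 ligands, 2 genes of ligand secretion, 10 Frizzled receptors, 2 co-receptors, 4 R-spondins, 3 R-spondin receptors, 8 secreted antagonists, 5 feedback inhibitors and 2 nuclear factors.

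Wnt ligands are lipid-modified by Porcn, carried to the cell surface by Wls, and bound there by Frizzled receptors with Lrp5 or Lrp6. In the canonical branch this stabilizes beta-catenin, which acts with Tcf and Lef factors on target genes. R-spondins bind Lgr4, Lgr5 or Lgr6 and keep the ubiquitin ligases Rnf43 and Znrf3 from clearing Frizzled. Axin2, Nkd1 and Notum are inhibitors whose genes are commonly activated by the pathway itself, and Lgr5 is known as a marker of stem cells in the mouse ovarian surface epithelium (OSE).

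The study asked where high-grade serous ovarian cancer can arise, using organoids from mouse oviduct and OSE. The 27 bulk libraries were made by CEL-Seq2, which counts tags near the 3′ end of transcripts. From C57BL/6 wild-type mice, oviduct and OSE tissue had 3 libraries each, oviductal organoids 3 and OSE organoids 2. Cas9-GFP organoids (3 libraries) came from oviducts of mice with a Cas9 and EGFP cassette in the Rosa26 locus, expressed in all cells, and received no guide RNA. TBP clones (3 libraries) were single oviductal clones from such Cas9-GFP organoids, treated with guide RNAs, Trp53 and Brca1 among their targets, and selected with Nutlin-3a. According to the study's methods, Brca1 was not fully lost in any of them. The study describes a pair of independent clones for each combination of mutations, so the libraries labelled as TBP clones may not all be separate clones. TBP tumors (6 libraries) grew from such clones under the skin of immunodeficient NSG mice, whose own stroma and vessels remain in the sample. Tumor-derived organoids were regrown with Nutlin-3a and were of 2 kinds, mes (T1-mes and T3-mes, a mixture of epithelial and fibroblast-like cells) and epi (T2-epi and T4-epi, epithelial). Donors were adult females, and each organoid line pooled several mice. Oviductal and OSE organoids were both grown in medium containing Wnt3a, R-spondin 1, noggin, EGF, a TGF-beta receptor inhibitor and estradiol, so that ligands and R-spondin were supplied from outside in culture. Tissue RNA and organoid RNA were extracted with different methods, so extraction and culture cannot be told apart.

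The shallowest library, TBP clone 1, had 82239 counts and the deepest, TBP clone 3, had 4531767. Levels are given as CPM, counts scaled to a common library total, on 1 TMM scale over all 27 libraries. A single count was worth 0.228 CPM in TBP clone 3, 11.2 CPM in TBP clone 1 and at most 1.73 CPM in the other libraries, so levels of low genes in TBP clone 1 are coarse. Trp53 was at 34.5 to 61 CPM in Cas9-GFP organoids, 0 to 5.02 CPM in TBP clones, 4.37 to 9.22 CPM in tumor-derived organoids and 18.3 to 57.1 CPM in tumors. The 3′ tags do not read the edited exons, so these levels check the labels only in part. OSE tissue libraries carried granulosa markers summing to 3615 to 4486 CPM and steroidogenic markers summing to 6205 to 7611 CPM, against 28.3 to 96.5 and 41.4 to 220 CPM in oviduct tissue. Ovgp1, the oviductal glycoprotein, was at 19.1 CPM in the first OSE organoid library and 3243 CPM in the other. It was at 14636 to 22938 CPM in oviductal organoids and 66.3 to 95 CPM in Cas9-GFP organoids. OSE organoids 2 therefore stood apart from its partner library, and results on OSE organoids are given for both libraries.

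RefSeq promoter windows of the GRCm38.p6 build were on hand for 33 of the 51 genes. The core sequence bound by Tcf and Lef factors was searched as CTTTGAA or CTTTGAT, on both strands, in the 250 bases before each RefSeq start. A gene can have several such starts. It was found in 7.48% of all 32851 windows and in a window of 3 of the 33 genes (Wnt5b, Wnt11 and Dkk1). The windows below are shown because both genes were at their highest in tissue and nearly undetected in wild-type organoids, Wnt11 in oviduct tissue and Nkd1 in both tissues. Capitals mark the match, which begins 51 bases before the Wnt11 start. Another Wnt11 window, chr7:98838595-98838844, held no match. The Nkd1 window held no match, which says only that these letters are not in it. It lies inside the Nkd1 gene as placed by GENCODE M21, which starts at 88521354, and not before that start.
Wnt11, ligand, chr7:98834862-98835111, plus strand: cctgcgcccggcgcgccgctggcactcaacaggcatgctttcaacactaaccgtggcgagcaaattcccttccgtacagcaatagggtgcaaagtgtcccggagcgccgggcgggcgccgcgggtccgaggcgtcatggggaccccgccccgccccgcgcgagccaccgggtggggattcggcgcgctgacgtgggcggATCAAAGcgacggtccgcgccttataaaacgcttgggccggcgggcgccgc
Nkd1, feedback inhibitor, chr8:88527383-88527632, plus strand: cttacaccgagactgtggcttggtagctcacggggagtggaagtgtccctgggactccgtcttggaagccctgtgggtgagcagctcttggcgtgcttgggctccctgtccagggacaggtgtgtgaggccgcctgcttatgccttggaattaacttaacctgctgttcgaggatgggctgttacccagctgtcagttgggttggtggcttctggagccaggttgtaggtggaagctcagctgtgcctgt

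Of the 51 genes, 12 had a count in every library: Fzd1, Fzd2, Fzd5, Fzd6, Fzd7, Fzd8, Lgr4, Lrp5, Lrp6, Porcn, Wls and Znrf3. They are receptors, co-receptors, a ligase that clears receptors, and the proteins that export ligands. The genes with the fewest counts were Wnt1, with 3 counts in all, Dkk1 with 4 and Rspo4 with 5, each confined to tumor libraries. No group had a mean of 10 CPM for 14 of the 51 genes. The plot of all members by library shows the machinery lit in every column and the secreted genes lit in blocks.

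**Figure D1:**
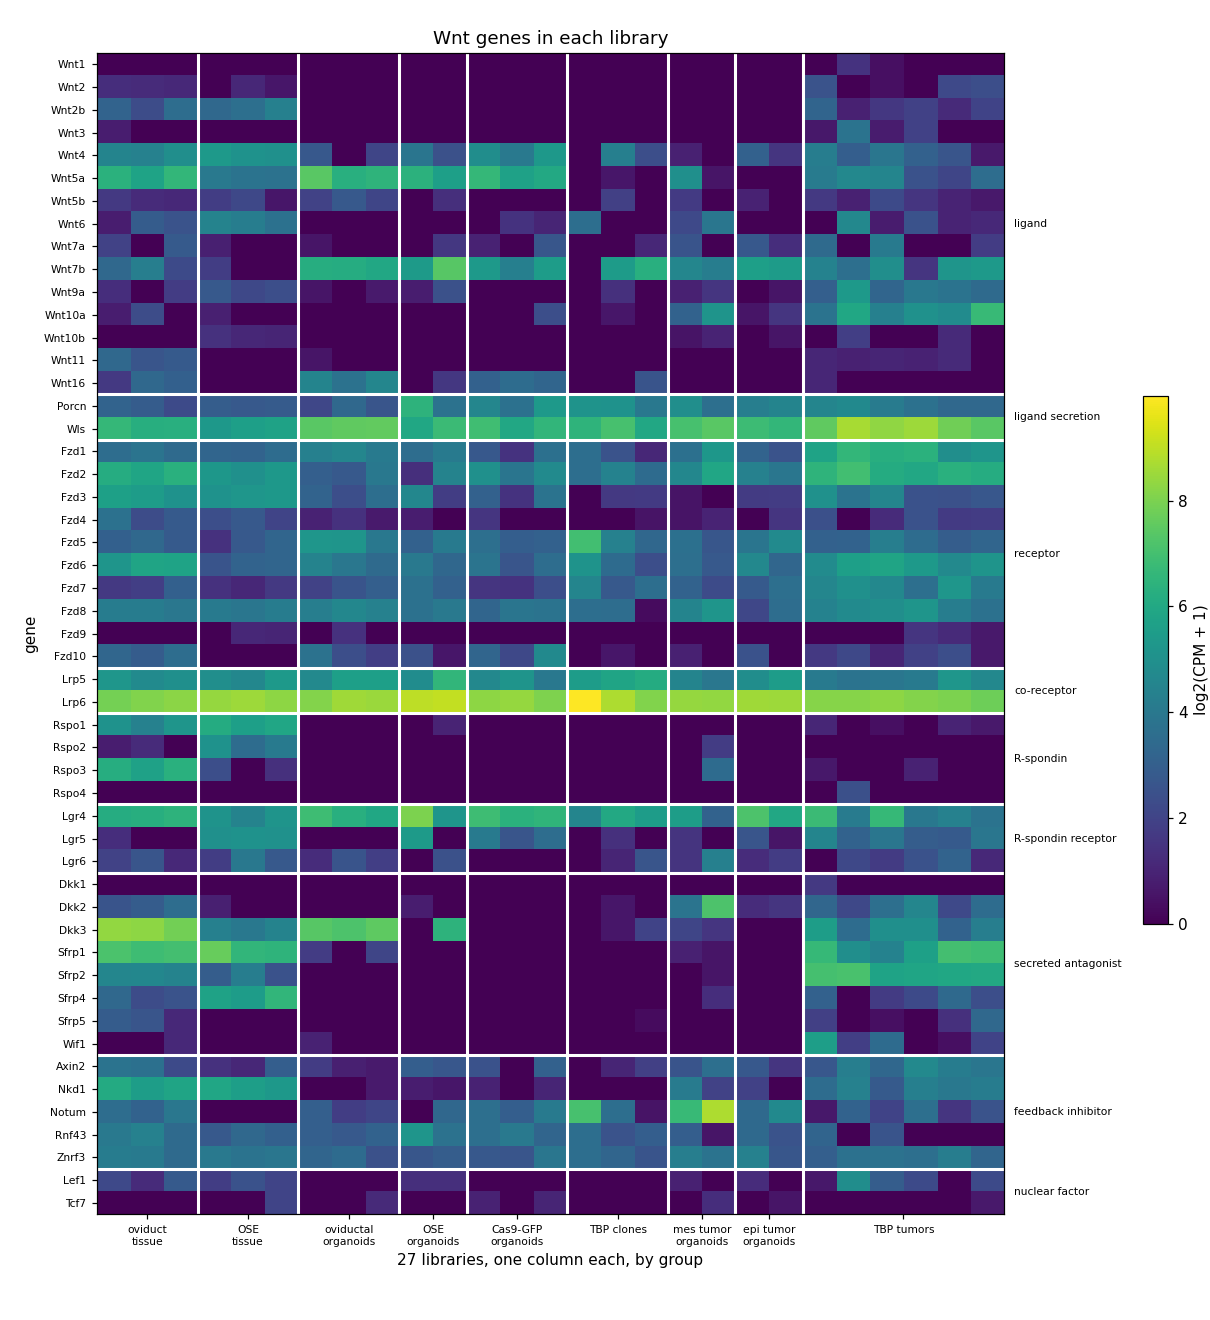
Level of each of the 51 Wnt genes (rows, grouped by role) in each of the 27 libraries (columns, by group), as log2(CPM + 1). Rspo1 and Sfrp1 are bright in both tissues and dark in organoids, Lrp6 and Wls are bright in every column, and Notum is bright in the 2 mes tumor organoid libraries and in TBP clone 1.

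Each comparison was fitted in edgeR (quasi-likelihood) over all genes that passed its filter on low counts, and a gene was called at an adjusted p under 0.05 (Benjamini-Hochberg). A gene that passed the filter only through the group where it is high could hardly fail to differ, so the counts below describe the genes and are no test of them as a set. Between oviduct and OSE tissue, 22 of the 51 genes were tested. Dkk3, Rspo3, Fzd6, Wnt5a, Sfrp2, Lgr4, Fzd2 and Wls were higher in oviduct, 8 genes against 26.9% of all 8787 genes tested. Lgr5, Rspo2, Sfrp4, Wnt6 and Rspo1 were lower in oviduct, 5 genes against 24.3% of all genes. The median log2 difference was 0.08 over the tested members and 0.00 over all genes. Without the filter, 17 members were higher (19.4% of all genes then tested) and 5 lower (17.6%), the additional ones including Notum, Fzd10, Wnt11 and Wnt16, which had no count in any OSE tissue library. The fit of all 27 libraries ended the calls of Fzd2, Lgr4, Rspo1, Sfrp2, Wls and Wnt6 (edgeR adjusted p 0.0711 for Wls to 0.286 for Wnt6).

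From oviduct tissue to oviductal organoids, 24 members were tested, of which 12 were lower in organoids (24.2% of all 9477 genes were) and 4 higher (18.7% of all genes). The lower genes were Rspo1, Rspo3, Sfrp1, Sfrp2, Dkk3, Nkd1, Notum, Rnf43, Wnt4, Fzd2, Fzd3 and Fzd6, and the higher ones Wnt7b, Wnt16, Fzd5 and Wls. The median log2 difference was -0.88 over these members and -0.02 over all genes. The fit of all 27 libraries ended the calls of Dkk3, Notum, Rnf43 and Wnt16 (edgeR adjusted p 0.189 for Wnt16 to 0.46 for Notum). From OSE tissue to OSE organoids, 28 members were tested, of which 9 were lower (18.6% of all 10232 genes) and 6 higher (14.5%). The lower genes were Rspo1, Rspo2, Sfrp1, Sfrp2, Sfrp4, Wnt2b, Wnt4, Wnt6 and Nkd1, and the higher ones Wnt5a, Wnt7b, Fzd7, Lgr4, Rnf43 and Porcn. Here the medians were -0.41 and -0.06. The fit of all 27 libraries ended the calls of Rnf43 (edgeR adjusted p = 0.211) and Wnt4 (0.0956), and RLE size factors ended those of Lgr4 (0.0504) and Rnf43 (0.05). Rspo1, Sfrp1, Sfrp2, Nkd1 and Wnt4 were on the lower list of both origins and Wnt7b on the higher list of both. The tissue and organoid groups of the 2 origins share no library.

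Both tissues held markers of other cell types that were near 0 in the organoids. Markers of fibroblasts, with 6 of 6 markers counted in each tissue, summed to 3807 to 7022 CPM in oviduct tissue and 1715 to 3204 CPM in OSE tissue. The same markers summed to 0 to 5.08 CPM in oviductal organoids, where Col1a1, Col1a2 and Lum were at 0, and to 0.763 and 39 CPM in OSE organoids, where the same 3 were at 0. Smooth muscle markers summed to 4803 to 5688 CPM in oviduct tissue, 430 to 640 CPM in OSE tissue, 0 to 5.25 CPM in oviductal organoids (Actg2 and Des at 0) and 0 in OSE organoids. In OSE tissue, beside the granulosa and steroidogenic markers given above, oocyte markers summed to 517 to 645 CPM. In OSE organoids granulosa markers summed to 4.58 and 12.7, steroidogenic markers to 3.82 and 13.2 and oocyte markers to 0 and 3.04 CPM. Epithelial markers were higher in every organoid library, at 341 to 399 CPM in OSE tissue against 5008 and 5539 CPM in OSE organoids, and at 1454 to 1813 CPM in oviduct tissue against 4163 to 5313 CPM in oviductal organoids. The part of these cells in the differences below was not tested. In bulk RNA, fewer cells of a type and less RNA per cell cannot be told apart.

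**Figure D2:**
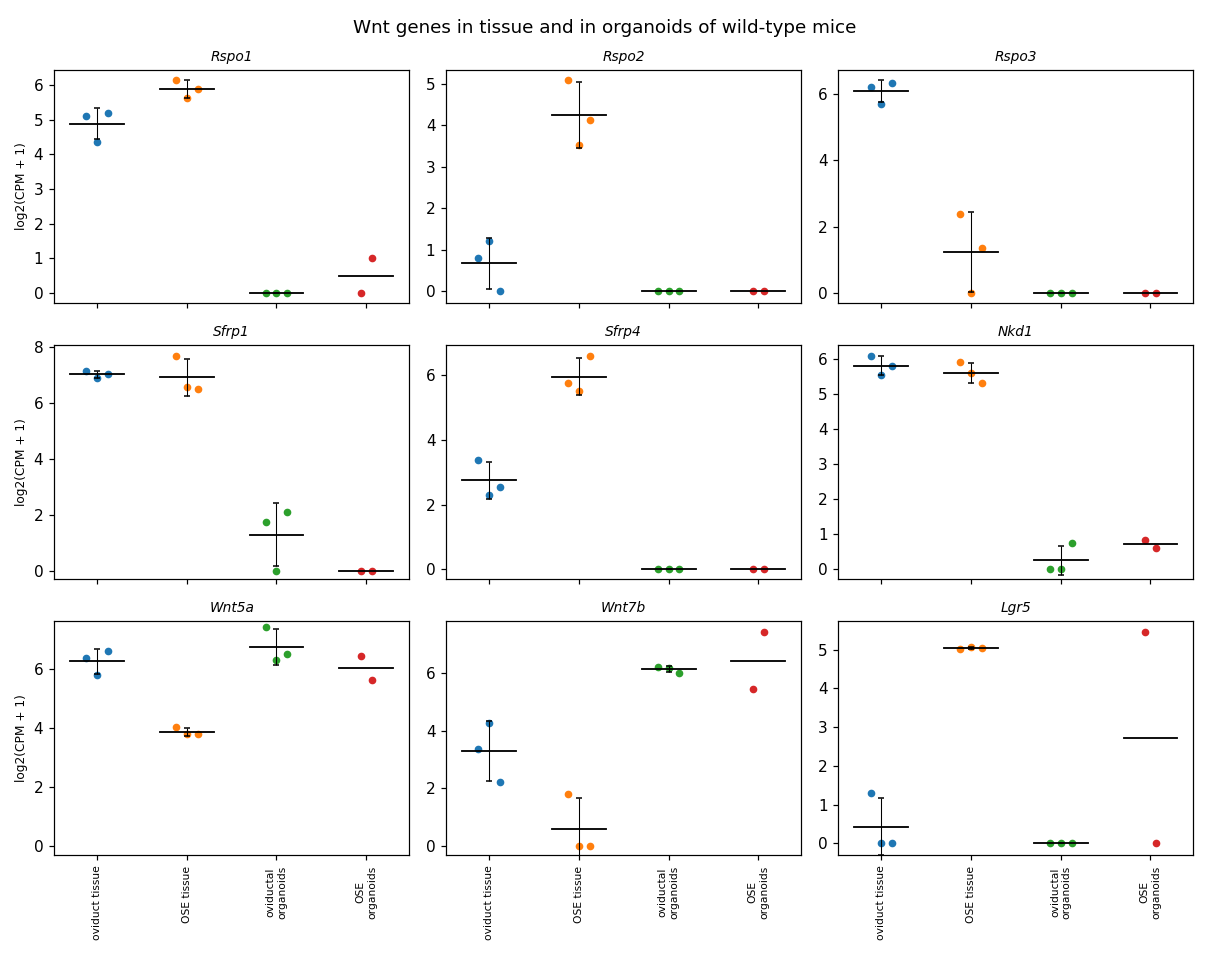
Level of 9 Wnt genes in the 11 wild-type libraries, as log2(CPM + 1), with 1 point per library, a bar at the group mean and error bars of 1 SD for groups of 3. Rspo1, Sfrp1 and Nkd1 are high in both tissues and near 0 in both kinds of organoid, Wnt7b is high in both kinds of organoid, and Lgr5 is high in OSE tissue and in OSE organoids 1 only.

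Among the ligands, Wnt5a, best known for beta-catenin-independent signaling, was the one with most calls. It was at 81.3, 53.9 and 95.3 CPM in oviduct tissue and at 15.2, 12.8 and 12.7 CPM in OSE tissue. The tissue groups did not overlap, with a log2 difference of 2.53 ± 0.26 (SE; edgeR adjusted p = 1.21e-06). Oviductal organoids had 170, 77 and 88.6 CPM, and OSE organoids had 84.7 and 48.1 CPM. OSE organoids were thus above all OSE tissue libraries (log2 difference 2.29 ± 0.33, edgeR adjusted p = 0.00318), while oviductal organoids overlapped oviduct tissue and were not called. The oviduct-to-OSE difference was smaller in organoids than in tissue by 1.66 ± 0.50 on the log2 scale, which just passed (edgeR adjusted p = 0.0499). That interaction call was lost when any of 8 libraries was left out (oviduct tissue 1 or 3, any OSE tissue library, oviductal organoids 2 or 3, or OSE organoids 1), with adjusted p up to 0.12.

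After editing, Wnt5a was nearly gone. Cas9-GFP organoids had 99.4, 51.8 and 64.2 CPM, and TBP clones had 0, 0.536 and 0 CPM, a single read over the 3 clone libraries. The count ratio was 480-fold (95% counting interval 85.2 to 19065), and the difference was called (edgeR adjusted p = 0.000981), also without TBP clone 1. The fitted log2 value of -8.21 was -9.69 without TBP clone 2 and -6.83 without TBP clone 3. Wnt5a was the only member called between clones and Cas9-GFP organoids among the 14 tested, 1 lower against 0.428% of all 7708 genes and 0 higher against 0.389%. DESeq2 called Wnt5a and Fzd10, both lower (1.13% of all genes called), and 4 members had an unadjusted edgeR p under 0.05, as had 9.95% of all genes. Without the filter edgeR also called Fzd10 (log2 -5.65, adjusted p = 0.00016) and Lgr5 (log2 -4.07, adjusted p = 0.00764) lower in clones. That fit called 372 of all 14318 genes tested. T2-epi and T4-epi had no Wnt5a count, T3-mes had 0.485 CPM and T1-mes had 30.5 CPM. Tumors had 3.23 to 24.5 CPM (median 14, n = 6), above every clone (count ratio 85-fold, 95% counting interval 15 to 3378, edgeR adjusted p = 0.00451), with a fitted log2 value of 5.85 that was 7.80 without TBP clone 2 and 4.54 without TBP clone 3. They were below every oviduct tissue library, with a log2 difference of -2.52 ± 0.52 (edgeR adjusted p = 0.00327).

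Wnt7b, a ligand of epithelia, followed culture. It was at 9.43, 18.4 and 3.67 CPM in oviduct tissue and at 72.5, 71.1 and 63 CPM in oviductal organoids. The groups were well apart (log2 difference 2.72 ± 0.36, edgeR adjusted p = 8.66e-05). OSE tissue had 2.54, 0 and 0 CPM, 3 counts in all, and OSE organoids had 42.7 and 168 CPM. Every organoid library was above every tissue library, and for OSE the count ratio was 155-fold (95% counting interval 52.5 to 753, edgeR adjusted p = 0.00341). The fitted log2 value of 6.98 went from 5.64 without OSE organoids 2 to 10.35 without OSE tissue 1. The interaction with origin passed (log2 -4.16 ± 1.21, edgeR adjusted p = 0.0437) and rested on the 3 OSE tissue counts. It was -7.44 without OSE tissue 1, -3.32 without OSE tissue 3, -4.83 without OSE organoids 1 and -2.80 without OSE organoids 2, and the call was lost without oviduct tissue 1 or 2, OSE tissue 2 or 3 or any of the 3 oviductal organoid libraries (adjusted p up to 0.139).

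Wnt7b was also counted in most edited libraries. Cas9-GFP organoids had 41.1, 19 and 44.9 CPM, below all C57BL/6 oviductal organoids (log2 difference -0.92 ± 0.28, edgeR adjusted p = 0.028). That call was lost without oviductal organoids 2, Cas9-GFP organoids 1 or Cas9-GFP organoids 2 (adjusted p up to 0.0686). TBP clones had 0, 42.9 and 77.8 CPM, epi organoids 48 and 43.2 CPM, mes organoids 22.8 and 17.9 CPM, and tumors 1.89 to 40.5 CPM (median 24.7). Both mes values were below both epi values, but the edgeR adjusted p was 0.273.

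Wnt4, a ligand required for Müllerian duct formation, went the other way. Oviduct tissue had 21.8, 19.7 and 29.3 CPM and oviductal organoids had 5.72, 0 and 3.28 CPM. All organoid values lay below all tissue values (log2 difference -2.79 ± 0.56, edgeR adjusted p = 0.00163, and -3.59 without oviductal organoids 1). OSE tissue had 40.6, 32.6 and 31.3 CPM and OSE organoids had 13.7 and 4.56 CPM, again without overlap (log2 difference -1.96 ± 0.49, edgeR adjusted p = 0.0216). This second call was lost without any of the 3 OSE tissue libraries (adjusted p up to 0.1), and the value was -2.84 without OSE organoids 1 and -1.32 without OSE organoids 2. Cas9-GFP organoids had 28.7, 15.5 and 38.5 CPM, above all C57BL/6 oviductal organoids (log2 difference 3.04 ± 0.60, edgeR adjusted p = 0.00292, and 3.86 without oviductal organoids 1) and at about the level of oviduct tissue.

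Wnt2b and Wnt6 were counted in both tissues and in no wild-type organoid. Wnt2b had 7.98, 3.95 and 11 CPM in oviduct tissue, 9.31, 11.6 and 19.1 CPM in OSE tissue, no count in any of the 15 organoid and clone libraries, and 0.874 to 8.19 CPM in tumors. In OSE it was at least 7.01-fold lower in organoids than in tissue, against a floor of 3 counts per library (edgeR adjusted p = 0.00474). Wnt6 had 0.726, 6.58 and 4.89 CPM in oviduct tissue and 21.2, 17.5 and 12.2 CPM in OSE tissue, lower in oviduct (log2 difference -2.19 ± 0.52, edgeR adjusted p = 0.00245, and -1.45 without oviduct tissue 1). It had no count in oviductal or OSE organoids, at least 8.9-fold lower than in OSE tissue (edgeR adjusted p = 0.00333). Cas9-GFP organoids had 0, 1.73 and 1.07 CPM of Wnt6, and clones had 11.2, 0 and 0 CPM, of which the first is 1 count. Wnt6 was at 14.1 CPM in T3-mes and 3.64 CPM in T1-mes, against 0 in both epi libraries. In tumors it was at 0 to 4.73 CPM apart from TBP tumor 2, at 24.5 CPM, above every tissue library.

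Wnt16 was at 2.18, 9.21 and 7.33 CPM in oviduct tissue, against 21.9, 12.7 and 23 CPM in C57BL/6 oviductal organoids. These organoids were higher (log2 difference 1.74 ± 0.50, edgeR adjusted p = 0.0133). The call was lost without oviduct tissue 1 (adjusted p = 0.0843). Cas9-GFP oviductal organoids had 7.64, 10.4 and 8.55 CPM, overlapping oviduct tissue. OSE tissue had no Wnt16 count and OSE organoids had 0 and 2.03 CPM, and no tumor-derived organoid had a count.

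Wnt10a and Wnt9a had their highest group means in tumors. Wnt10a had 0.726, 3.95 and 0 CPM in oviduct tissue, 0, 0.536 and 0 CPM in TBP clones, and 13.1 to 104 CPM in tumors (median 29.6). Every tumor was above every clone and every oviduct tissue library. The count ratio to clones was 237-fold (95% counting interval 42.2 to 9364, edgeR adjusted p = 0.00143, with a fitted log2 value of 7.48 that was 9.41 without TBP clone 2 and 6.15 without TBP clone 3), and the log2 difference from oviduct tissue was 4.81 ± 1.03 (edgeR adjusted p = 0.00381, and 6.32 without oviduct tissue 2). Wnt9a had 1.45, 0 and 2.44 CPM in oviduct tissue, 0, 1.61 and 0 CPM in clones and 7.1 to 40.2 CPM in tumors (median 11.4). Tumors were above oviduct tissue by 3.39 ± 0.86 on the log2 scale (edgeR adjusted p = 0.00926). Against clones the count ratio was 28.1-fold (95% counting interval 9.45 to 138, edgeR adjusted p = 0.00974), and the call was lost without TBP clone 3 (adjusted p = 0.0588). The fitted log2 value of 4.58 was 7.94 without TBP clone 2 and 3.25 without TBP clone 3.

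The remaining ligands were low. Wnt11 had 9.43, 5.26 and 6.11 CPM in oviduct tissue, no count in OSE tissue and at most 1.29 CPM elsewhere. Wnt7a reached 16.3 CPM in TBP tumor 3 and Wnt3 13.1 CPM in TBP tumor 2. Wnt1, Wnt2, Wnt5b and Wnt10b stayed at or below 5.92 CPM in every library.

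Between the tumors and clones as a whole, 27 members were tested, of which 15 were higher in tumors (20.1% of all 10473 genes) and 2 lower (11.7%). The median log2 difference was 2.09 over the tested members, 2.04 with genes at 0 in clones set to their lower bound, and 0.16 over all genes. Between tumors and oviduct tissue, 31 members were tested, of which 8 were higher in tumors (23.7% of all 10827 genes) and 6 lower (22.4%), with medians of -0.34 and 0.08. The higher genes were Wnt9a, Wnt10a, Porcn, Wls, Fzd1, Fzd7, Lgr5 and Sfrp2, and the lower ones Wnt5a, Fzd3, Rspo1, Rspo3, Dkk3 and Nkd1. Both comparisons use the same 6 tumors.

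Tumors held host and other cells in amounts that differed between libraries. Fibroblast markers (6 of 6 counted) summed to 9650 to 56973 CPM in tumors, 0.456 to 22.3 CPM in clones (Col1a2 and Lum at 0) and 3807 to 7022 CPM in oviduct tissue. Myeloid markers (4 of 4 counted) summed to 188 to 761 CPM in tumors, against 21.2 to 38.6 CPM in clones (Emr1 at 0). Epcam was at 199 CPM in TBP tumor 1 and 366 CPM in TBP tumor 3, and at 7.87, 13.2, 0 and 1.84 CPM in tumors 2, 4, 5 and 6, against 436 to 583 CPM in clones. The part of these cells in the tumor differences was not tested.

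Both secretion genes were present in every library. Wls, the ligand carrier, had 98, 75 and 78.2 CPM in oviduct tissue and 38.9, 48.9 and 53.1 CPM in OSE tissue (log2 difference 0.86 ± 0.19, edgeR adjusted p = 0.00144). Oviductal organoids had 169, 186 and 191 CPM, above oviduct tissue (log2 difference 1.10 ± 0.18, edgeR adjusted p = 0.000408), and Cas9-GFP organoids had 119, 62.2 and 94.1 CPM, below them (log2 difference -0.96 ± 0.22, edgeR adjusted p = 0.00807). None of these groups overlapped its partner. Clones had 89.4, 133 and 61.6 CPM and tumors 171 to 401 CPM (median 270). Tumors were higher than clones by 1.53 ± 0.40 on the log2 scale (edgeR adjusted p = 0.0141, lost without TBP clone 3 at 0.0692) and higher than oviduct tissue by 1.69 ± 0.32 (edgeR adjusted p = 0.00205).

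Porcn, the acyltransferase that makes ligands active, split the 2 OSE organoid libraries. It had 6.77, 5.82 and 6.37 CPM in OSE tissue and 85.5 and 12.7 CPM in OSE organoids. Both organoid libraries were above the tissue (log2 difference 2.92 ± 0.76, edgeR adjusted p = 0.0257), by 3.74 without OSE organoids 2 and by 1.05 without OSE organoids 1, where the call was lost (adjusted p = 0.0918), as it was without any of the 3 OSE tissue libraries (adjusted p up to 0.112). Oviductal organoids had 3.34, 9.31 and 5.25 CPM and Cas9-GFP organoids 22.9, 12.1 and 39.6 CPM. Cas9-GFP organoids were above all C57BL/6 organoids (log2 difference 2.17 ± 0.51, edgeR adjusted p = 0.00812, lost without Cas9-GFP organoids 3 at 0.0663). Tumors had 9.21 to 25.3 CPM (median 14.5), above oviduct tissue at 7.98, 6.58 and 3.67 CPM (log2 difference 1.29 ± 0.46, edgeR adjusted p = 0.0399). That call was lost without any of the 3 oviduct tissue libraries or tumors 1, 2 or 3 (adjusted p up to 0.14), and with DESeq2 (0.0557) and the fit of all 27 libraries (0.0834).

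Frizzled receptors did not move as 1 group. Fzd2 had 71.1, 57.9 and 80.6 CPM in oviduct tissue, 38.1, 31.4 and 38.7 CPM in OSE tissue and 7.15, 5.92 and 15.1 CPM in oviductal organoids. It was higher in oviduct than in OSE tissue (log2 difference 0.96 ± 0.20, edgeR adjusted p = 0.00092) and lower in oviductal organoids than in oviduct tissue (log2 difference -2.90 ± 0.34, edgeR adjusted p = 3.17e-05). OSE organoids had 1.53 and 21.3 CPM, both below OSE tissue but not called. Clones had 11.2, 20.4 and 10.3 CPM and tumors 62.5 to 123 CPM (median 75.8), without overlap (log2 difference 2.45 ± 0.37, edgeR adjusted p = 0.000848), and tumors were near the level of oviduct tissue.

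Fzd6, a receptor of the planar polarity branch, had 36.3, 55.3 and 53.8 CPM in oviduct tissue and 5.08, 8.15 and 8.49 CPM in OSE tissue. The tissues were clearly apart (log2 difference 2.70 ± 0.31, edgeR adjusted p = 3.96e-06). In culture the origins met, at 21, 14.4 and 9.84 CPM in oviductal organoids and 15.3 and 9.12 CPM in OSE organoids. Oviductal organoids were lower than oviduct tissue (log2 difference -1.66 ± 0.32, edgeR adjusted p = 0.00139), and the interaction with origin was -2.30 ± 0.55 (edgeR adjusted p = 0.0192, and 0.0511 without OSE tissue 1). Clones had 33.5, 10.2 and 4.33 CPM, of which the first is 3 counts, and tumors had 24.9 to 55.6 CPM (median 37.8), with overlap. The log2 difference was 2.04 ± 0.57 (edgeR adjusted p = 0.0186) and was lost without TBP clone 2 (adjusted p = 0.0691) or TBP clone 3 (log2 1.36, adjusted p = 0.116).

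Fzd1 was counted in every library and had its highest group mean in tumors. It had 10.9, 13.2 and 9.78 CPM in oviduct tissue, 11.2, 4.82 and 1.14 CPM in clones and 29.4 to 97 CPM in tumors (median 64.7). Oviductal organoids had 19.5, 22.8 and 16.4 CPM, and T3-mes, at 37.8 CPM, was within the tumor range. All tumors were above all clones and all oviduct tissue. The log2 difference was 4.30 ± 0.73 over clones (edgeR adjusted p = 0.0015, and 5.20 or 3.43 without TBP clone 2 or 3). Over oviduct tissue it was 2.42 ± 0.45 (edgeR adjusted p = 0.00173). Fzd7 had 2.18, 2.63 and 7.33 CPM in oviduct tissue and 11.4 to 36.5 CPM in tumors (median 23.5), also without overlap (log2 difference 2.56 ± 0.52, edgeR adjusted p = 0.00297, and 3.26 without oviduct tissue 3). It was higher in OSE organoids, at 12.2 and 7.6 CPM, than in OSE tissue, at 1.69, 1.16 and 2.12 CPM (log2 difference 2.44 ± 0.54, edgeR adjusted p = 0.0137, 0.0646 with DESeq2).

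Fzd3 had 49.3, 44.7 and 33 CPM in oviduct tissue, against 8.11, 4.23 and 11.2 CPM in oviductal organoids (log2 difference -2.42 ± 0.35, edgeR adjusted p = 0.000157). Clones had 0, 2.14 and 2.28 CPM and tumors 4.52 to 32.2 CPM (median 9.32), between clones and tissue. Both tumor calls were near the threshold, at 2.64 ± 0.87 over clones (edgeR adjusted p = 0.0392) and -1.63 ± 0.59 under oviduct tissue (edgeR adjusted p = 0.0437). The first was lost without any of the 3 clone libraries or tumors 1 or 2 (adjusted p up to 0.138). The second was lost without any of the 3 oviduct tissue libraries or tumors 2, 4, 5 or 6 (up to 0.134) and without the filter (0.057). Fzd5, a receptor of epithelia, went up in culture, from 7.26, 9.21 and 6.11 CPM in oviduct tissue to 37.2, 35.5 and 15.1 CPM in oviductal organoids (log2 difference 1.94 ± 0.43, edgeR adjusted p = 0.00302). Cas9-GFP organoids had 11.5, 6.91 and 7.49 CPM, below all of these (log2 difference -1.71 ± 0.43, edgeR adjusted p = 0.0128, lost without Cas9-GFP organoids 3 at 0.0509). In the clones Fzd5 had 123, 19.8 and 9.13 CPM, the first from TBP clone 1. Fzd8 was at 0.228 to 36 CPM and was called in no comparison, and Fzd4, Fzd9 and Fzd10 stayed at or below 25.7 CPM.

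Both co-receptors were called lower in tumors than in clones. Lrp6 was at 220 to 535 CPM in all libraries apart from TBP clone 1, at 1006 CPM. Tumors, at 220 to 314 CPM (median 282), were lower than clones, at 1006, 427 and 272 CPM, by a log2 difference of -0.99 ± 0.34 (edgeR adjusted p = 0.0468), with overlap. Without TBP clone 1 the difference was -0.38 and the call was lost (adjusted p = 0.245), and it was also lost without TBP clone 2 and without each of the 6 tumors in turn (adjusted p 0.0524 to 0.0914). DESeq2 (0.0561), RLE size factors (0.0659) and a fit without the filter (0.0663) did not make the call either. Lrp5 had 44.7, 55.7 and 70.3 CPM in clones and 13.1 to 36.8 CPM in tumors (median 16.2), without overlap (log2 difference -1.56 ± 0.36, edgeR adjusted p = 0.00803, lost without TBP clone 3 at 0.0532).

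The R-spondins were tissue genes, and each tissue had its own. Rspo3 had 72.6, 51.3 and 79.4 CPM in oviduct tissue and 4.23, 0 and 1.59 CPM in OSE tissue (log2 difference 5.02 ± 0.42, edgeR adjusted p = 1.42e-07, and 5.85 without OSE tissue 1). Rspo2 had 0.726, 1.32 and 0 CPM in oviduct tissue and 33, 10.5 and 16.5 CPM in OSE tissue, a count ratio of 29.8-fold (95% counting interval 7.97 to 250, edgeR adjusted p = 7.02e-05). Rspo1 was in both, at 33.4, 19.7 and 35.4 CPM in oviduct and 69.4, 48.9 and 58.9 CPM in OSE (log2 difference -0.96 ± 0.24, edgeR adjusted p = 0.00357). None of the 3 overlapped between the tissues.

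In culture the R-spondins disappeared. Oviductal organoids had no count of Rspo1, Rspo2 or Rspo3, at least 14.9-fold lower than oviduct tissue for Rspo1 (edgeR adjusted p = 2.16e-05) and at least 34.2-fold lower for Rspo3 (edgeR adjusted p = 1.85e-06), against a floor of 3 counts per library. OSE organoids had no count of Rspo2, at least 10.5-fold lower than OSE tissue (edgeR adjusted p = 0.00619). They had 0 and 1.01 CPM of Rspo1, with 2 counts in all and a ratio of 98.3-fold (95% counting interval 26.9 to 817, edgeR adjusted p = 0.000848). The fitted log2 value of -6.41 was -5.70 without OSE organoids 1 and -9.29 without OSE organoids 2. Cas9-GFP organoids, clones and epi organoids had no R-spondin count, and T3-mes had 10.2 CPM of Rspo3 and 2.43 CPM of Rspo2. Tumors stayed at or below 1.09 CPM for Rspo1 and 0.946 CPM for Rspo3, below every oviduct tissue library. For Rspo1 the log2 difference was -5.53 ± 0.48 (edgeR adjusted p = 2.85e-05), and for Rspo3 the count ratio was 404-fold (95% counting interval 110 to 3359, edgeR adjusted p = 7.18e-06, with the fitted log2 value moving from -8.10 to -8.69 without TBP tumor 4).

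Of the R-spondin receptors, Lgr5 was a gene of OSE tissue. OSE tissue had 31.3, 32.6 and 31.8 CPM and oviduct tissue had 1.45, 0 and 0 CPM. The 2 counts in oviduct gave a ratio of 47.1-fold (95% counting interval 12.8 to 393, edgeR adjusted p = 8.99e-07), and the fitted log2 value of -5.34 was -8.12 without oviduct tissue 1. OSE organoids 1 kept Lgr5 at 42.7 CPM, and OSE organoids 2 had no count, at a floor of 1.52 CPM. OSE organoids were thus not called against OSE tissue, and Lgr5 did not pass the filter between oviductal and OSE organoids. In that comparison it was called lower in oviductal organoids by the fit of all 27 libraries (log2 -8.08, adjusted p = 0.0293).

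Lgr5 had no count in any of the 3 C57BL/6 oviductal organoid libraries but 16.2, 5.18 and 10.7 CPM in Cas9-GFP oviductal organoids. It did not pass the filter there, and without the filter it was called (log2 6.77, edgeR adjusted p = 1.79e-06). Clones had 0, 1.61 and 0 CPM, called lower than Cas9-GFP organoids in the fit without the filter (log2 -4.07, edgeR adjusted p = 0.00764). Epi organoids had 5.22 and 0.485 CPM and mes organoids 1.82 and 0 CPM. Tumors had 6.13 to 22.4 CPM (median 11), above every clone and every oviduct tissue library but overlapping Cas9-GFP organoids. The count ratio was 25.4-fold over clones (95% counting interval 8.53 to 125, edgeR adjusted p = 0.00892) and 17.8-fold over oviduct tissue (95% counting interval 4.84 to 148, edgeR adjusted p = 0.00358). The fitted log2 value over clones, 4.22, was 7.60 without TBP clone 2 and 2.92 without TBP clone 3, and that over oviduct tissue, 4.03, was 7.32 without oviduct tissue 1.

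Lgr4, the broadly expressed receptor, had 71.8, 76.3 and 86.8 CPM in oviduct tissue and 33.8, 21 and 34.5 CPM in OSE tissue (log2 difference 1.37 ± 0.21, edgeR adjusted p = 7.82e-05). OSE organoids had 253 and 35.5 CPM, a log2 difference of 2.25 ± 0.71 from OSE tissue (edgeR adjusted p = 0.0492). Without OSE organoids 1 that difference was 0.27 (adjusted p = 0.453) and without OSE organoids 2 it was 3.04, so 1 library decides it. The call was also lost without any of the 3 OSE tissue libraries (adjusted p up to 0.173). Tumors spread from 12.9 to 111 CPM, with tumors 1 and 3, the Epcam-high ones, at 111 and 102 CPM and the other 4 at 12.9 to 20 CPM. Lgr6 stayed at or below 19.4 CPM and was called in no comparison.

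The secreted antagonists bind ligands (Sfrp1, Sfrp2, Sfrp4, Sfrp5, Wif1) or block Lrp5 and Lrp6 (Dkk1, Dkk2), and Dkk3 is a divergent family member. Sfrp1 had 141, 116 and 128 CPM in oviduct tissue, 202, 93.1 and 89.2 CPM in OSE tissue, and 2.38, 0 and 3.28 CPM in oviductal organoids. The drop in oviductal culture was -5.92 ± 0.39 on the log2 scale (edgeR adjusted p = 4.59e-07), and OSE organoids had no count, at least 67.3-fold lower than OSE tissue (edgeR adjusted p = 0.00137). No Cas9-GFP organoid, clone or epi library had a Sfrp1 count either. Tumors had 20.3 to 127 CPM (median 75.8), at least 6.23-fold above clones (edgeR adjusted p = 0.00104) and overlapping oviduct tissue.

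Sfrp2 had 23.2, 23.7 and 20.8 CPM in oviduct tissue and 6.77, 17.5 and 4.78 CPM in OSE tissue (log2 difference 1.43 ± 0.40, edgeR adjusted p = 0.00778, lost without OSE tissue 3 at 0.0776). It had no count in oviductal, OSE or Cas9-GFP organoids or clones, which put it at least 11.4-fold below oviduct tissue (edgeR adjusted p = 2.19e-05) and 5.08-fold below OSE tissue (edgeR adjusted p = 0.0184). Tumors had 54.9 to 137 CPM (median 62.1), at least 7.04-fold above clones (edgeR adjusted p = 0.000188) and above all oviduct tissue (log2 difference 1.84 ± 0.38, edgeR adjusted p = 0.00326). Sfrp4 had 9.43, 3.95 and 4.89 CPM in oviduct tissue and 53.3, 44.2 and 95 CPM in OSE tissue (log2 difference -3.27 ± 0.38, edgeR adjusted p = 4.2e-06). OSE organoids had no count, at least 33.7-fold lower (edgeR adjusted p = 0.00131). Sfrp5 stayed at or below 9.21 CPM, and Wif1 was at 47.5 CPM in TBP tumor 1, at 10.2 CPM in TBP tumor 3 and at or below 3.07 CPM elsewhere.

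Dkk3 had 324, 307 and 233 CPM in oviduct tissue, 19.5, 15.1 and 21.2 CPM in OSE tissue and 165, 146 and 178 CPM in oviductal organoids. It was higher in oviduct than in OSE tissue by 3.94 ± 0.20 on the log2 scale (edgeR adjusted p = 1.21e-09), with a smaller drop to oviductal organoids (log2 difference -0.84 ± 0.18, edgeR adjusted p = 0.00232). OSE organoids 1 had no count, and OSE organoids 2, the Ovgp1-bearing library, had 86.1 CPM. Cas9-GFP oviductal organoids had no count in any library, at least 43.4-fold below C57BL/6 oviductal organoids (edgeR adjusted p = 2.1e-06). Clones had 0, 0.536 and 2.97 CPM and tumors 7.75 to 46.4 CPM (median 24.3), higher than clones (log2 difference 3.58 ± 0.83, edgeR adjusted p = 0.00754, and 5.34 without TBP clone 3) and lower than oviduct tissue (log2 difference -3.62 ± 0.46, edgeR adjusted p = 0.0002). Among the 17 members tested between Cas9-GFP and C57BL/6 oviductal organoids, Dkk3, Fzd1, Fzd5, Wls and Wnt7b were lower, 5 against 13.3% of all 8323 genes, and Fzd2, Porcn and Wnt4 were higher, 3 against 13.0% of all genes. Fzd1 (log2 -1.49) lost its call without any of these 6 libraries except Cas9-GFP organoids 3, where it was -2.19, with adjusted p up to 0.143. Fzd2 (log2 1.39) lost its call without oviductal organoids 1 or 2 or Cas9-GFP organoids 1 or 3, with adjusted p up to 0.17. DESeq2 called neither (adjusted p 0.0897 for Fzd1 and 0.0825 for Fzd2), and the fit of all 27 libraries ended the calls of Fzd1, Fzd2, Fzd5, Wls and Wnt7b (edgeR adjusted p 0.0687 for Wls to 0.418 for Wnt7b). Mouse strain, Cas9 expression and organoid line cannot be told apart in this comparison.

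Of the feedback inhibitors, Nkd1, which acts on Dishevelled, was high in tissue and near 0 in wild-type culture. Oviduct tissue had 66.8, 46.1 and 55 CPM and OSE tissue 59.2, 47.7 and 39.3 CPM. Oviductal organoids had 0, 0 and 0.656 CPM, 1 count in all, and OSE organoids had 0.763 and 0.507 CPM, 2 counts in all. The count ratios were 279-fold for oviduct (95% counting interval 49.5 to 11099, edgeR adjusted p = 9.22e-07) and 77.4-fold for OSE (95% counting interval 21.1 to 644, edgeR adjusted p = 0.00056). For oviduct the fitted log2 value of -7.55 was -6.87 without oviductal organoids 1 and -9.15 without oviductal organoids 3. Cas9-GFP organoids had at most 1.07 CPM, epi organoids 2.85 and 0 CPM, and mes organoids 16.9 and 2.91 CPM. Clones had no count, and tumors had 6.1 to 20.1 CPM (median 16), at least 1.22-fold above clones (edgeR adjusted p = 0.00073), a bound set by the depth of TBP clone 1, and below all oviduct tissue (log2 difference -2.01 ± 0.33, edgeR adjusted p = 0.000851).

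Axin2, the scaffold of the beta-catenin destruction complex, was low throughout. It had 13.1, 11.8 and 3.67 CPM in oviduct tissue, 1.69, 1.16 and 6.9 CPM in OSE tissue, 2.38, 0.846 and 0.656 CPM in oviductal organoids and 6.87 and 5.57 CPM in OSE organoids. It did not pass the filter in the comparisons of 1 of these groups with another. Without the filter it was called lower in oviductal organoids than in oviduct tissue (log2 -2.67, edgeR adjusted p = 0.00197). It was then also called higher in oviduct than in OSE tissue (log2 1.29, 0.0387). For the interaction it passed the filter and was not called, and the fit without the filter called it (log2 -3.38, 0.0477). DESeq2 called the drop in oviductal organoids (log2 -2.83, adjusted p = 0.019). Clones had 0, 1.07 and 2.74 CPM and tumors 5.46 to 24.6 CPM (median 15.8), without overlap. The log2 difference was 2.82 ± 0.66 (edgeR adjusted p = 0.00778), which was lost without TBP clone 2 (adjusted p = 0.054) and was 3.74 without TBP clone 3. Tumors overlapped oviduct tissue.

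Rnf43, the ligase that clears Frizzled, had 15.2, 19.7 and 9.78 CPM in oviduct tissue against 7.15, 5.92 and 7.87 CPM in oviductal organoids, and 5.92, 9.31 and 7.43 CPM in OSE tissue against 35.9 and 12.7 CPM in OSE organoids. It was lower in culture for oviduct (log2 difference -1.09 ± 0.39, edgeR adjusted p = 0.0414) and higher in culture for OSE (log2 difference 1.68 ± 0.53, edgeR adjusted p = 0.0482). Each of these 2 calls was lost in most sets with 1 library left out (adjusted p up to 0.192 and 0.17), the exceptions being oviduct tissue 3 and OSE organoids 2. Both were also lost with DESeq2 (adjusted p 0.172 and 0.0848) and in the fit of all 27 libraries (edgeR adjusted p 0.405 and 0.211). Without OSE organoids 1 the OSE difference was 0.83, and without OSE organoids 2 it was 2.27. The difference between the 2 origins was itself tested, and the interaction was -2.66 ± 0.65 (edgeR adjusted p = 0.0205). It was -1.80 without OSE organoids 1 and was then lost (adjusted p = 0.0632), as it was without oviduct tissue 1 or 2 or OSE tissue 1 or 3.

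Across origin and culture, 34 members were tested for this interaction, and Fzd6, Notum, Rnf43, Wnt5a and Wnt7b passed. All 5 were negative, as were 6.68% of all 11458 genes. Each had a lower ratio of oviduct to OSE in organoids than in tissue. The fit of all 27 libraries called 0 of them, with edgeR adjusted p from 0.0613 (Fzd6) to 0.363 (Wnt5a). Notum, an extracellular enzyme that removes the lipid of Wnt ligands, had 10.9, 7.89 and 14.7 CPM in oviduct tissue, no count in OSE tissue, 7.15, 2.54 and 3.28 CPM in oviductal organoids, and 0 and 9.12 CPM in OSE organoids. Its interaction (edgeR adjusted p = 0.0435) fitted -7.05 on the log2 scale, -7.90 without OSE organoids 1 and -1.26 without OSE organoids 2, where the adjusted p was 1, so OSE organoids 2 decides it. The call was also lost without 8 of the other 10 libraries. The drop of Notum in oviductal culture (log2 difference -1.28 ± 0.47, edgeR adjusted p = 0.0459) was lost without oviduct tissue 1, 2 or 3 or oviductal organoids 2 or 3 (adjusted p up to 0.163), and with DESeq2 (0.172). Znrf3, the partner of Rnf43, was at 4.59 to 19.9 CPM in every library and was called in no comparison, and Lef1 and Tcf7, the nuclear factors, reached 28.8 CPM in TBP tumor 2 and 3.18 CPM in OSE tissue 3.

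Oviductal and OSE organoids, grown in the same medium, showed no called member: edgeR called 0 of the 19 tested, where 0.0864% of all 9257 genes were called in either direction. Of the 19, 5 had an unadjusted p under 0.05, as had 11.5% of all genes. DESeq2 called 2 members and 2.49% of all genes, Wnt16 higher (log2 4.08, adjusted p = 0.00877) and Porcn lower (log2 -3.03, adjusted p = 0.0423) in oviductal organoids. Without OSE organoids 2 edgeR called 7 members and 14.7% of all genes: Dkk3, Wls and Wnt16 higher in oviductal organoids and Lgr4, Lgr5, Porcn and Rnf43 lower. Without OSE organoids 1 it called 2 and 2.50% of all genes, Wnt16 higher and Wnt7b lower. In both fits the lone OSE organoid library is assumed to vary like the oviductal organoids. The OSE organoid libraries differed between themselves in Lgr5 (42.7 and 0 CPM), Lgr4 (253 and 35.5 CPM), Porcn (85.5 and 12.7 CPM) and Dkk3 (0 and 86.1 CPM), so the calls depend on which of the 2 is used.

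**Figure D3:**
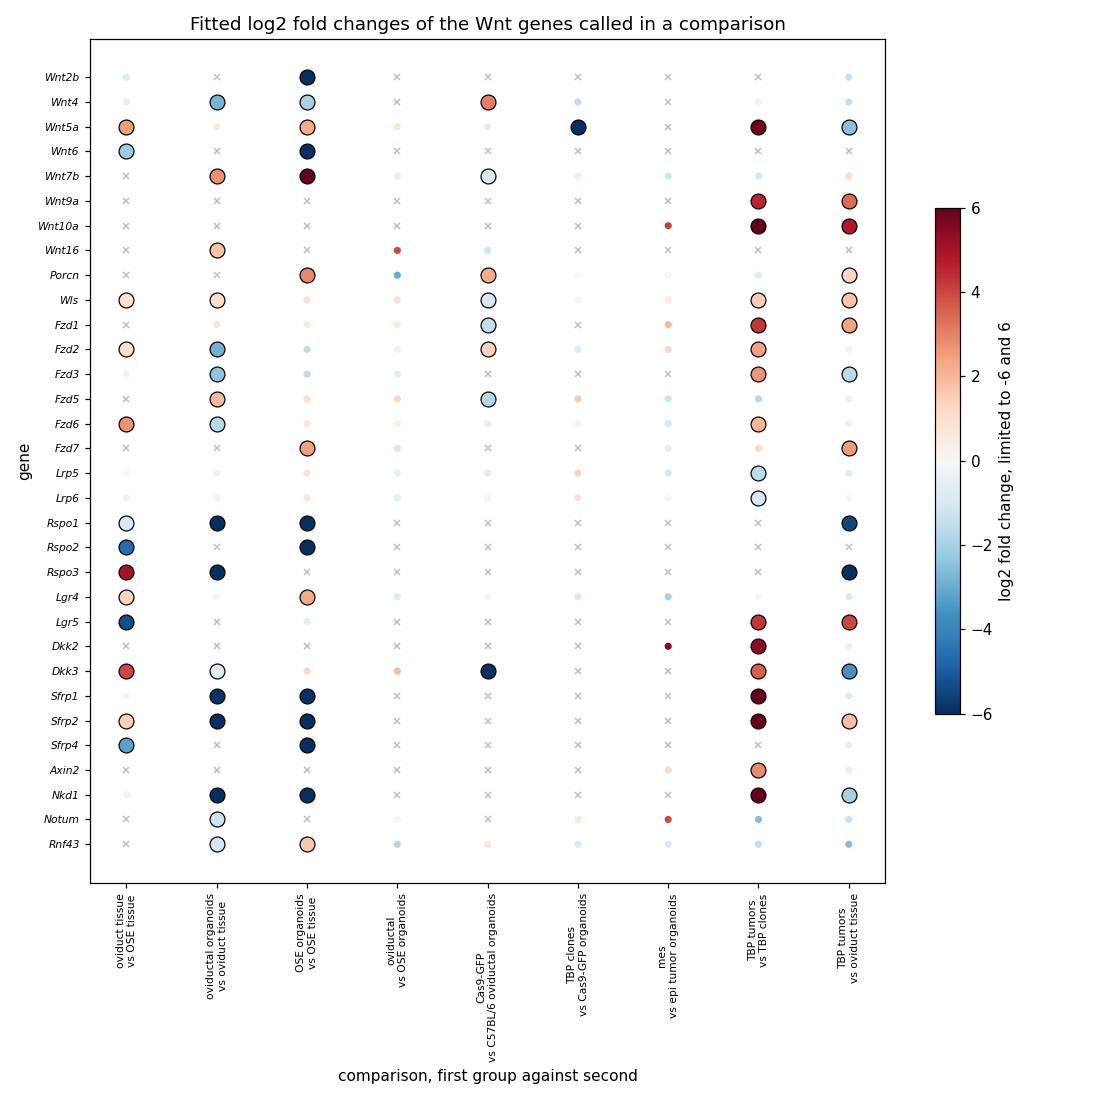
Fitted log2 fold change (color, limited to -6 and 6) of the 32 genes called in at least 1 comparison, for 9 comparisons of groups. Large circles with a black rim are called (edgeR adjusted p under 0.05), small dots were tested and not called, and crosses did not pass the filter on low counts. Rspo1, Sfrp1, Sfrp2 and Nkd1 are blue in both comparisons of organoids with tissue, and the columns for oviductal against OSE organoids and for mes against epi organoids have no large circle.

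Of the members tested between mes and epi tumor organoids, Notum, Dkk2 and Wnt10a had the lowest adjusted p. Notum had 104 and 428 CPM in mes (T1 and T3) and 9.5 and 25.7 CPM in epi (T2 and T4). Dkk2 had 13.2 and 144 CPM in mes and 1.42 and 1.94 CPM in epi. Wnt10a had 7.74 and 34.4 CPM in mes and 0.475 and 1.94 CPM in epi. None of the 3 overlapped, but with 2 libraries against 2 edgeR called 0 of the 19 members tested, where 1.13% of all 9775 genes were called in either direction. The log2 differences were 3.93 ± 0.86 for Notum (edgeR adjusted p = 0.108), 5.52 ± 1.30 for Dkk2 (0.126) and 4.08 ± 1.05 for Wnt10a (0.156). Of the 19, 6 had an unadjusted p under 0.05, as had 14.1% of all genes. T1-mes and T2-epi came from adjacent tumors of 1 clone, shown by the study on the same mouse. T3-mes and T4-epi share a sample label, which does not say that they came from the same mouse. With these pairs as a block, edgeR called Notum (log2 3.78 ± 0.42, adjusted p = 0.0136) and Dkk2 (log2 5.02 ± 0.83, adjusted p = 0.0433), 2 members where 2.46% of all genes were called.

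Other fits of the same libraries called some of these. DESeq2 called Dkk2 (adjusted p = 6.14e-05), Notum (4.38e-05), Wnt10a (0.0268) and Wnt6 (0.0359), all higher in mes, where it called 4.62% of all genes. Without T1-mes, edgeR called 9 members and 14.0% of all genes, 8 of them higher in mes, among them Rspo3 (log2 7.40, adjusted p = 0.0417) and Fzd1 (log2 2.53, adjusted p = 0.0166), with Lgr4 lower (log2 -3.73, adjusted p = 0.00881). In these fits the lone T3-mes library is assumed to vary like the epi pair. Without T3-mes, with T1-mes then the lone library, it called Wnt5a alone among the members and 2.57% of all genes. Fibroblast markers (6 of 6 counted in both kinds) summed to 3120 CPM in T1-mes and 7532 CPM in T3-mes and to 31.3 and 101 CPM in the epi libraries, and Epcam was at 238 CPM in T1-mes and 28.6 CPM in T3-mes against 434 and 592 CPM in epi. The part of these cells in the mes levels was not tested. In the clones Notum had 134, 11.2 and 0.456 CPM, of which the first is 12 counts. In the tumors Notum had 0.546 to 11.4 CPM (median 3.98), below both mes libraries. Dkk2 had 3.5 to 22.7 CPM in tumors (median 9.58), overlapping oviduct tissue at 5.08, 6.58 and 11 CPM. Against clones, at 0, 0.536 and 0 CPM, Dkk2 was called in tumors (count ratio 57.4-fold, 95% counting interval 10.1 to 2287, edgeR adjusted p = 0.00558, lost without TBP clone 3 at 0.054). Its fitted log2 value of 5.38 was 7.34 without TBP clone 2 and 4.08 without TBP clone 3.

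Genes of the wider pathway were followed as a list of cytoplasmic, nuclear, planar polarity, co-receptor and common target genes, 60 of them in the table. Between the tissues, 19 of the 37 tested were higher in oviduct and 4 lower (26.9% and 24.3% of all genes), led by Ccnd1 (log2 5.47), Sox9 (3.70) and Celsr2 (2.94). In oviductal organoids 5 of 40 were higher and 12 lower than in tissue (18.7% and 24.2% of all genes), led by Gpc3 and Wisp1, which had no count there, and Prickle2, at a mean of 0.501 CPM against 90.8. In OSE organoids 11 of 44 were higher and 9 lower (14.5% and 18.6% of all genes), led by Gpc3, Prickle2 and Daam2, each with no count in OSE organoids. Oviductal and OSE organoids had 0 of 36 called (0.0864% of all genes), and clones and Cas9-GFP organoids 0 of 29 (0.389% of all genes higher and 0.428% lower).

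In Cas9-GFP against C57BL/6 organoids, 5 of 33 were higher and 5 lower (13.0% and 13.3% of all genes), led by Ccnd1 (log2 -2.42), Bcl9l (2.25) and Myc (-1.63). Mes against epi organoids gave 2 of 35 (1.13% of all genes), Wisp1 (log2 5.32, edgeR adjusted p = 0.0236) and Tcf7l1 (log2 4.88, edgeR adjusted p = 0.0306), both higher in mes. Tumors had 16 of 42 higher and 2 lower than clones (20.1% and 11.7% of all genes), led by Wisp1, at a mean of 366 CPM against 0.152, Prickle1, at 41.6 against 0.179 CPM, and Daam2, at 23.5 CPM against no count. Against oviduct tissue 13 of 44 were higher and 8 lower (23.7% and 22.4% of all genes), led by Bambi (log2 -3.72), Prickle2 (-3.46) and Wisp1 (3.28). For the interaction of origin with culture 2 of 48 were positive and 6 negative, where 11.7% of all genes were called in either direction, led by Cd44 (log2 -4.60), Ccnd1 (-4.42) and Sox9 (-3.86).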

How the data were processed

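RNA was sequenced by CEL-Seq2. The authors mapped reads with BWA (GRCm38) and deposited the resulting read counts of each gene without normalization; copies of a molecule were counted separately, so intervals and floors cover counting error only. Uniquely mapped sense reads were counted; the authors' own tests used DESeq2 1.18.0. Here 1 spike-in entry was left out. Comparisons used edgeR 4.0.16 under R 4.3.3: TMM scaling and filterByExpr within the compared libraries, a quasi-likelihood fit, and Benjamini-Hochberg adjustment over all genes tested. The fits were tested on simulated data. Levels are CPM over the TMM-scaled totals of all 27 libraries. A gene at 0 in a group was compared with a floor of 3 counts per library; with 1 to 3 counts in a group, the ratio of summed counts is given with an exact 95% interval. The study calls its tissue samples, organoid lines and tumors independent, but clones and tumors may share a source (tumors grew on both flanks of a mouse), so their p-values measure the spread between these libraries. T1-mes is paired with T2-epi, shown as tumors of the same mouse, and T3-mes with T4-epi by their shared label. Gene positions are from GENCODE M21. The lowest chi-square per gene among 33 replicate pairs was 2.53, above counting error.

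Values are given for the 32 members called in a comparison with a group mean of at least 10 CPM, Lgr5 and Axin2 among them. They are not given for every group, and the other members are given by range. Of the wider pathway list, the 3 called genes with the largest change in a comparison are named. Members, lists, comparisons and tests were chosen with earlier results of these data known. Marker lists were written from general knowledge. Alternatives were DESeq2 1.42.0 (missing adjusted p-values left missing), RLE scaling, testing every gene with no filter, 1 model for all 27 libraries, dropping each library in turn, and a replicate block. Figures were drawn with matplotlib 3.10.9. The study's authors excluded a further OSE organoid line because of contamination, and it is not among the 27 libraries.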

Additional observations from a re-analysis of the deposited data

Results flagged for a closer look

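Among 50 members with a count in a tumor, 14 had 1 tumor far from the other 5, with a gap over 0.625 of the whole range. That cutoff flags about 1 gene in 20 only where values are normally distributed. Several of these genes had few counts, and a gene counted in 1 tumor has the whole range as its gap. The number flagged therefore cannot be set against that rate, and genes within a tumor are not independent. In TBP tumor 2, Wnt9a was at 40.2, Lef1 at 28.8, Wnt6 at 24.5, Wnt3 at 13.1, Rspo4 at 4.37 and Wnt1 at 1.75 CPM. In TBP tumor 1, Wif1 was at 47.5, Wnt2b at 8.19, Dkk1 at 2.18 and Wnt16 at 1.09 CPM. In TBP tumor 6, Sfrp5 was at 9.21, Tcf7 at 0.614 and Wnt11 at 0 CPM. Fzd5 was at 18.3 CPM in TBP tumor 3, which with TBP tumor 1 has the higher Epcam. Dkk1, Rspo4, Tcf7 and Wnt16 had no count in the other tumors.

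The difference between oviduct and OSE was itself tested between organoids and tissue, and 5 members passed, all with a lower oviduct-to-OSE ratio in organoids (edgeR). The log2 values were -2.30 for Fzd6, -7.05 for Notum, -2.66 for Rnf43, -1.66 for Wnt5a and -4.16 for Wnt7b. For Notum, OSE tissue was at 0 in all libraries and OSE organoids 2 alone carried the OSE organoid counts.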

How the results depend on the processing

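No called member changed sign under any alternative run. The number of members called moved by over 1.5 times as follows. DESeq2 called 20 between the tissues (main 13), 2 between oviductal and OSE organoids (0), 2 between clones and Cas9-GFP organoids (1) and 4 between mes and epi organoids (0). Without the filter on low counts the numbers were 22, 3 and 2 for tissues, clones and mes against epi, and 8 for the interaction (5). More genes were then tested, but the members added for the interaction (Axin2, Lgr4 and Porcn) had already passed the filter. The fit of all 27 libraries, which shares 1 estimate of spread, called 2 between oviductal and OSE organoids, 4 between Cas9-GFP and C57BL/6 organoids (8), 2 between mes and epi organoids, 27 between tumors and clones (17) and 0 for the interaction. For the interaction in the 11 wild-type libraries, 3098 genes and 11 members had an unadjusted edgeR p under 0.05. RLE size factors moved no count by that much.

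With each library left out in turn, the members called ranged from 12 to 16 between the tissues, 13 to 18 between oviductal organoids and oviduct tissue, 10 to 20 between OSE organoids and OSE tissue, 0 to 7 between oviductal and OSE organoids, 5 to 9 between Cas9-GFP and C57BL/6 organoids, 1 to 3 between clones and Cas9-GFP organoids, 0 to 9 between mes and epi organoids, 13 to 17 between tumors and clones, 12 to 15 between tumors and oviduct tissue, and 1 to 10 for the interaction. Of 632 single-gene values with a library left out, 104 lost their call. Of the 89 single-gene calls, DESeq2 did not make 8, RLE size factors 3, no filter 4 and the fit of all 27 libraries 23.

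The labels give no shared batch for tissue, wild-type organoids or clones, and replicate numbers were not used as pairs in the main fits. Over all 14 pairs by number, the 2 of tumor organoids included, the correlation of deviations from the group means was 0.010 to 0.138. Between libraries of different pairs it was -0.106 to 0.052 and mostly negative. Deviations from a group mean cancel out within the group, so positive values for some pairs force negative ones for others. The contrast is thus partly set by the calculation, and both tumor organoid pairs share 1 value, 0.079. The source of this small difference was not tested. With the number as a replicate block, the members called were 13 between the tissues, 14 between oviductal organoids and oviduct tissue, 8 between Cas9-GFP and C57BL/6 organoids, 1 between clones and Cas9-GFP organoids and 2 between mes and epi organoids (Dkk2 and Notum, pairing T1 with T2, from the same mouse, and T3 with T4). The block ended the calls of Notum (adjusted p = 0.0708) and Rnf43 (0.0838) in oviductal organoids and of Fzd1 (0.0577) in Cas9-GFP organoids.

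Over all genes, calls between oviductal and OSE organoids were 8, and 269 with DESeq2, 116 without the filter and 251 in the fit of all libraries; between mes and epi organoids 110, and 507, 283, 555 and, with the block, 240; between clones and Cas9-GFP organoids 63, and 115, 372 without the filter and, with the block, 95. The fit of all libraries also gave 2970 between the tissues (main 4495), 1114 between Cas9-GFP and C57BL/6 organoids (2189), 5251 between tumors and clones (3333) and 671 for the interaction (1338). The cause was not tested. TBP clone 1, at 82239 counts, limits every level near 0 in the clones, and 2 OSE organoid libraries that differ limit each OSE organoid result.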
